A study of Homo sapiens with 17 samples.

Results

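MYC is a transcription factor that binds DNA only as a pair with MAX, and the genes that compete for MAX form a small network around it. MYC-MAX pairs activate genes of growth, ribosome production and metabolism, whereas MNT, MXD1, MXD3, MXD4 and MXI1 pair with the same MAX and repress from the same E-box sequences. MLX is a relative of MAX that pairs with MLXIP, also called MondoA, a factor that responds to glucose. In cultured fibroblasts MYC is known for following growth signals, and MXD proteins for rising as cells leave the cycle. The 9 genes described here, MYC, MAX, MNT, MXD1, MXD3, MXD4, MXI1, MLX and MLXIP, were selected from the table by symbol, as a set proposed with earlier results of these data known. All 9 of 9 were found among the 9699 genes of the deposited expression table.

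The study asked how transcription and translation respond to stress in BJ cells, a line of human fibroblasts immortalised with hTERT, by sequencing poly(A) RNA (RNA-Seq) and ribosome-protected fragments (Ribo-Seq) in parallel. Proliferating cultures grown in full serum were sequenced in both runs. Run 1 also held quiescent cells, made by serum depletion, and pre-senescent cells, in which RASG12V was switched on for 5 days with 1e-07 M 4-OHT, a tamoxifen metabolite. Run 2 also held senescent cells, induced the same way for 14 days, and transformed cells, which carried hTERT, knock-downs that include p16INK4A, SV40 small T and a constitutive RASG12V. The transformed cells therefore differ from their proliferating control in several genes at once, and all other cultures are 1 line.

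The 17 libraries, 9 of RNA-Seq and 8 of Ribo-Seq, were deposited as 12 columns of FPKM, the number of fragments scaled to the length of the transcript and to the size of the library, so that genes can be compared. Of these, 5 columns hold the authors' single value for 2 libraries each and 7 hold 1 library. No value therefore has a replicate error, and no test between conditions was possible. Instead a gene was called as having risen or fallen where it differed at least 2-fold from the proliferating culture of its own run, and each difference is set beside that between the proliferating cultures of run 2 and run 1. That difference had an SD over all genes of 0.62 in log2 RNA level, 0.84 in log2 Ribo-Seq level and 0.63 in log2 translation efficiency (TE, the Ribo-Seq FPKM over the RNA FPKM). The difference between the proliferating cultures holds sequencing run and culture together, which cannot be told apart. The study reported a batch effect, with replicates less alike between runs than within a run. A comparison within a run does not hold that effect. Every value below 1 was raised to 1.00, the floor. The table holds no counts and stated library totals were not used here, so no counting interval is given.

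The labels disagree with each other for 2 Ribo-Seq libraries. The library titled as senescent carries the condition label of proliferation, and the library titled as the run 2 proliferating culture carries that of senescence. The titles, which also name the columns of the table, were followed, and values under the condition labels are given beside the calls they end. MKI67, a proliferation marker, was at the floor of 1.00 FPKM in the senescent columns of both assays and at 44.0 (RNA) and 43.0 (Ribo-Seq) FPKM in the run 2 proliferating columns, as named by their titles. Of 10 genes measured as signs of cell state, the same 5 fell in senescence in RNA and Ribo-Seq by the titles. In each assay 3 rose, CDKN1A and GDF15 in both. Under the condition labels the Ribo-Seq directions turn, and the assays then oppose each other for these genes. The marker levels thus go with the titles. CDKN2A, the gene of p16INK4A, stood at 6.75 FPKM of RNA in the run 2 proliferating culture and 12.6 in the library labelled transformed, so the RNA level does not show its knock-down. The single CDKN2A transcript of the table cannot separate p16INK4A from the other product of this gene. HRAS RNA was 2415 and 1284 FPKM in the run 1 and run 2 proliferating cultures, 2102 in pre-senescence, 2087 in senescence and 312 in the library labelled transformed. Its RNA level thus did not separate the cultures given 4-OHT from the proliferating ones, and it does not show whether RAS protein was switched on. ESR1, an estrogen receptor gene, was 1 of the 3 that rose in senescence by Ribo-Seq. Its RNA was 19.2 and 102 FPKM in the run 1 and run 2 proliferating cultures and 1.00 in the library labelled transformed. By Ribo-Seq it was 332, 242 and 8.84 FPKM in the same order. Whether the inducible construct, which the study names with ERTAM, is read in the HRAS or ESR1 values was not tested. Of the fibroblast markers, 8 of 8 were in the table, and VIM RNA lay between 2956 and 4881 FPKM. Matrix and receptor markers did not stay level: 6 of 8 fell in RNA in senescence, with a median of -2.02 on the log2 scale, among them COL1A1 from 1328 to 51.6 FPKM and PDGFRB from 48.5 to 4.49. In pre-senescence 4 of 8 fell, and in the library labelled transformed COL1A2 and LUM fell, LUM from 155 to 13.3 FPKM. Of other cells' markers, 2 of 6 epithelial ones (KRT8 and KRT18), 0 of 3 endothelial ones and 2 of 3 blood ones (CD68 and CD14) were in the table, with summed RNA of 103 to 273 FPKM for the epithelial and 39.3 to 133 for the blood pair. CD14 alone was at most 1.67 FPKM of RNA. Their part in the results was not tested.

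**Figure D1:**
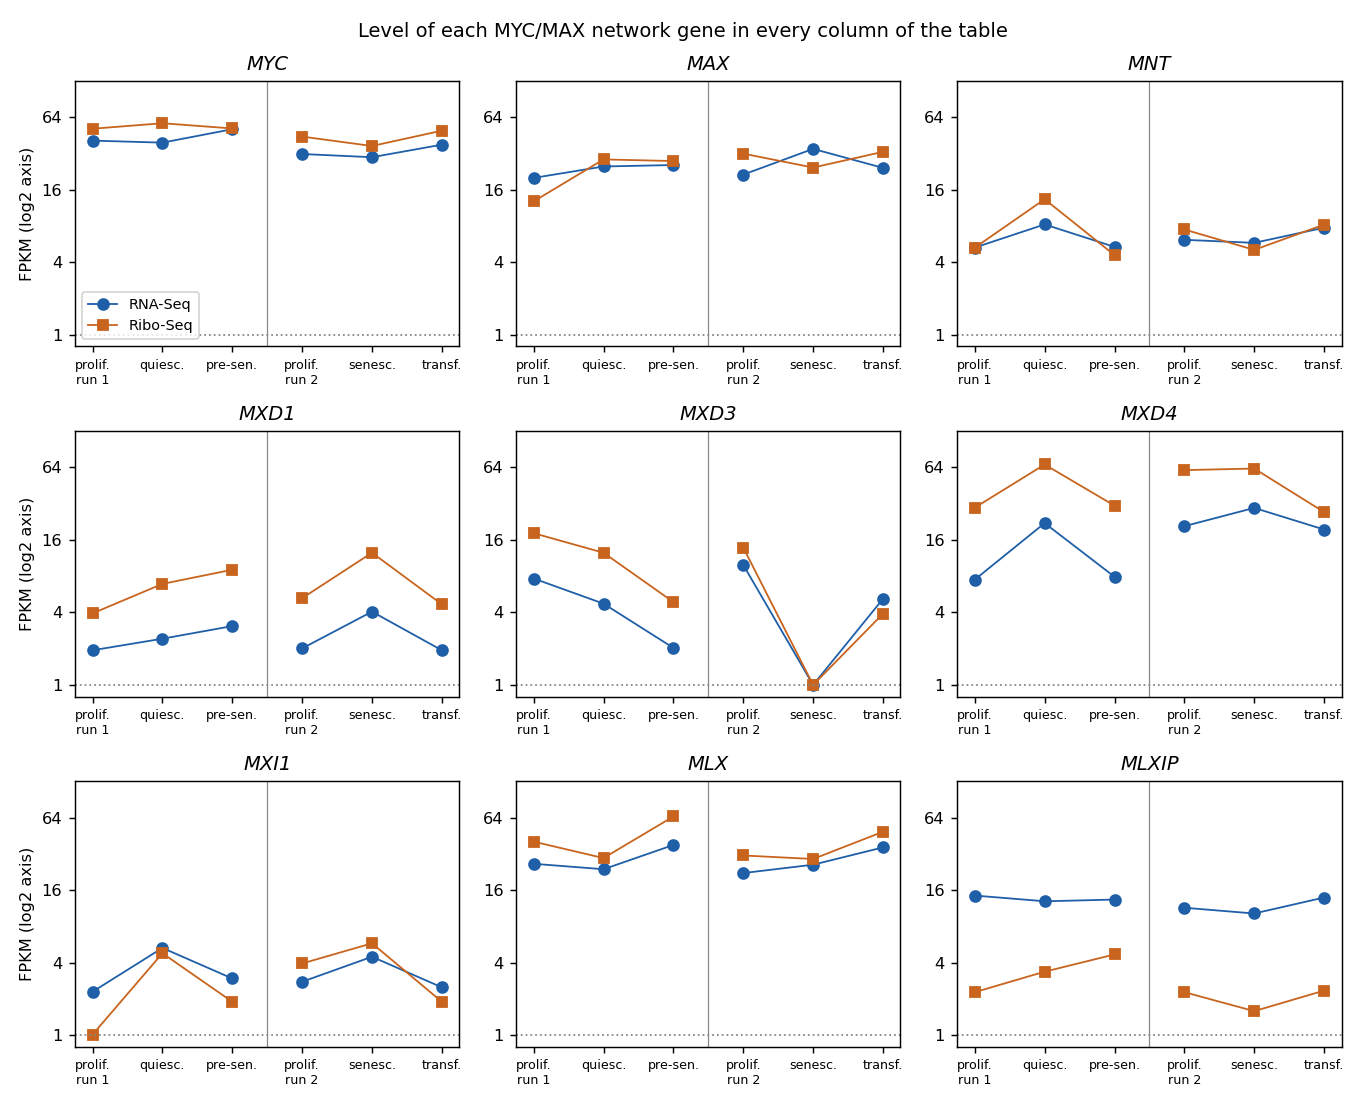
Level of each of the 9 genes in every column, in FPKM on a log2 axis, with RNA-Seq as circles and Ribo-Seq as squares; a point is a column of 1 or 2 libraries, the vertical line separates run 1 from run 2, and the dotted line is the floor of 1.00. MYC stays between 29.8 and 50.9 FPKM of RNA, whereas MXD3 reaches the floor in senescence in both assays.

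The results that follow turn mostly on the repressors MXD3, MXD1 and MXD4, and their promoters are shown to let their sequence be read beside the values. RefSeq promoters of build GRCh38.p14 run from 250 bases before to 50 after the annotated start, and they were found for 8 of the 9 members in 11 entries. MYC had no entry, so its promoter was not searched. The E-box CACGTG, the site that MYC-MAX and MXD-MAX pairs share, is in capitals. It is its own reverse complement and so was read on both strands at once. It was present in 3 members, MXD4, MNT and MLX, each with 1 entry. Counted by entry, it was in 7.23% of all 34943 promoters of the reference, or 9.38% of the 10666 promoters of genes in the table. Of the E2F motifs TTTCCCGC, TTTGGCGC, TTTCGCGC and TTTGCCGC, searched on both strands because MXD3 is a cell-cycle gene, none was in a member's window, against 3.3% of all promoters. Such a match is a description of the letters, not evidence of binding. MXD3 lies at chr5:177312703-177313002 on the minus strand, MXD1 at chr2:69914859-69915158 on the plus strand and MXD4 at chr4:2262060-2262359 on the minus strand. The windows around the E-box of MNT, chr17:2401221-2401280 on the minus strand, and of MLX, chr17:42567023-42567082 on the plus strand, are 60 bases each. Each sequence reads 5′ to 3′ toward its gene.
MXD3: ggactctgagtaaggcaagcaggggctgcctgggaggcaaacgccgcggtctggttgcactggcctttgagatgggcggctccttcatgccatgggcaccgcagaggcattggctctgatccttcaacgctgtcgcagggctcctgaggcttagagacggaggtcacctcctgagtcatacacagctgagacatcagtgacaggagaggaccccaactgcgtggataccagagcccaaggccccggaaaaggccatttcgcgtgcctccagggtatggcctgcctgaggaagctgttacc
MXD1: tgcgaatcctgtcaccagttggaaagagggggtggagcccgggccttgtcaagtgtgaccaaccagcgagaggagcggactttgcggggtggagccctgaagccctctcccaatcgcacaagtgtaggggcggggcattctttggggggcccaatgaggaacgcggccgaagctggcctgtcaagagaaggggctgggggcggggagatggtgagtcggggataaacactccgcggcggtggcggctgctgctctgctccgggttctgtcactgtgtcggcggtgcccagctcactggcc
MXD4: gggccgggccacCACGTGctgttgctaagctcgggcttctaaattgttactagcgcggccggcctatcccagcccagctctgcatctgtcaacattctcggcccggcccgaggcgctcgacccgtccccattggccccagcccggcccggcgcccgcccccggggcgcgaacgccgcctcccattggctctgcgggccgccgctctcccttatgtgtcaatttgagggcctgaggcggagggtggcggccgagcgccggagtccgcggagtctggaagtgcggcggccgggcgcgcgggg
MNT: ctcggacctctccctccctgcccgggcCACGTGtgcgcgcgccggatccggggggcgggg
MLX: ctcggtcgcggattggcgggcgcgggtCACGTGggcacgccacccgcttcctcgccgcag
In MXD4 the E-box began 238 bases before the annotated start, in MNT 193 and in MLX 50. The genes that share it did not share a pattern of levels. By RNA, MXD4 was highest in senescence, MNT in quiescence and MLX in pre-senescence. By Ribo-Seq, MXD4 and MNT were highest in quiescence, MXD4 only slightly, whereas MLX was highest in pre-senescence.

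The members past 2-fold were counted beside the share of all genes past it. In quiescence MXD4 and MXI1, 2 of 9 members, rose in RNA and 0 fell, where 4.02% of all genes rose and 2.37% fell. In Ribo-Seq 4 of 9 members were past 2-fold (MAX, MNT, MXD4 and MXI1), against 17.1% of all genes, and in TE 1 of 9, MXI1, against 7.89%. In pre-senescence 1 of 9 members, MXD3, fell in RNA and 0 rose, against 2.0% and 1.77% of all genes. There 4 of 9 were past 2-fold in Ribo-Seq (MAX, MXD1 and MLXIP up, MXD3 down) against 17.4%, and 1 of 9, MLXIP, in TE against 14.5%. In senescence MXD1 rose and MXD3 fell in RNA, where 7.08% of all genes rose and 13.0% fell. The same 2 members were past 2-fold in Ribo-Seq, against 27.6% of all genes, a share that 2 of 9 does not exceed, and MAX was the 1 member past it in TE, against 9.43%. In the library labelled transformed 0 of 9 members were past 2-fold in RNA, where 4.92% of all genes rose and 5.33% fell. There 3 of 9 fell in Ribo-Seq (MXD3, MXD4 and MXI1), against 12.7% of all genes past 2-fold, and 1 of 9, MXD4, in TE, against 3.41%. Between the proliferating cultures of run 2 and run 1, which should share a state by their titles, 1 of 9 members was past 2-fold in RNA (MXD4) against 7.85% of all genes. In Ribo-Seq that number was 3 of 9 (MAX, MXD4 and MXI1) against 18.6%, and in TE 2 of 9 (MAX and MXI1) against 9.69%. Of the 22 member calls in the 4 comparisons, 9 kept their direction and stayed past 2-fold with the proliferating control of the other run. This setting also crosses runs, so run and condition cannot be told apart in it. All 22 remained past 2-fold when every comparison was centred on its median over all genes. That centring moved the share of risen genes among all TE calls from 39.2% to 51.2% in pre-senescence and from 37.5% to 48.2% in the library labelled transformed.

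**Figure D2:**
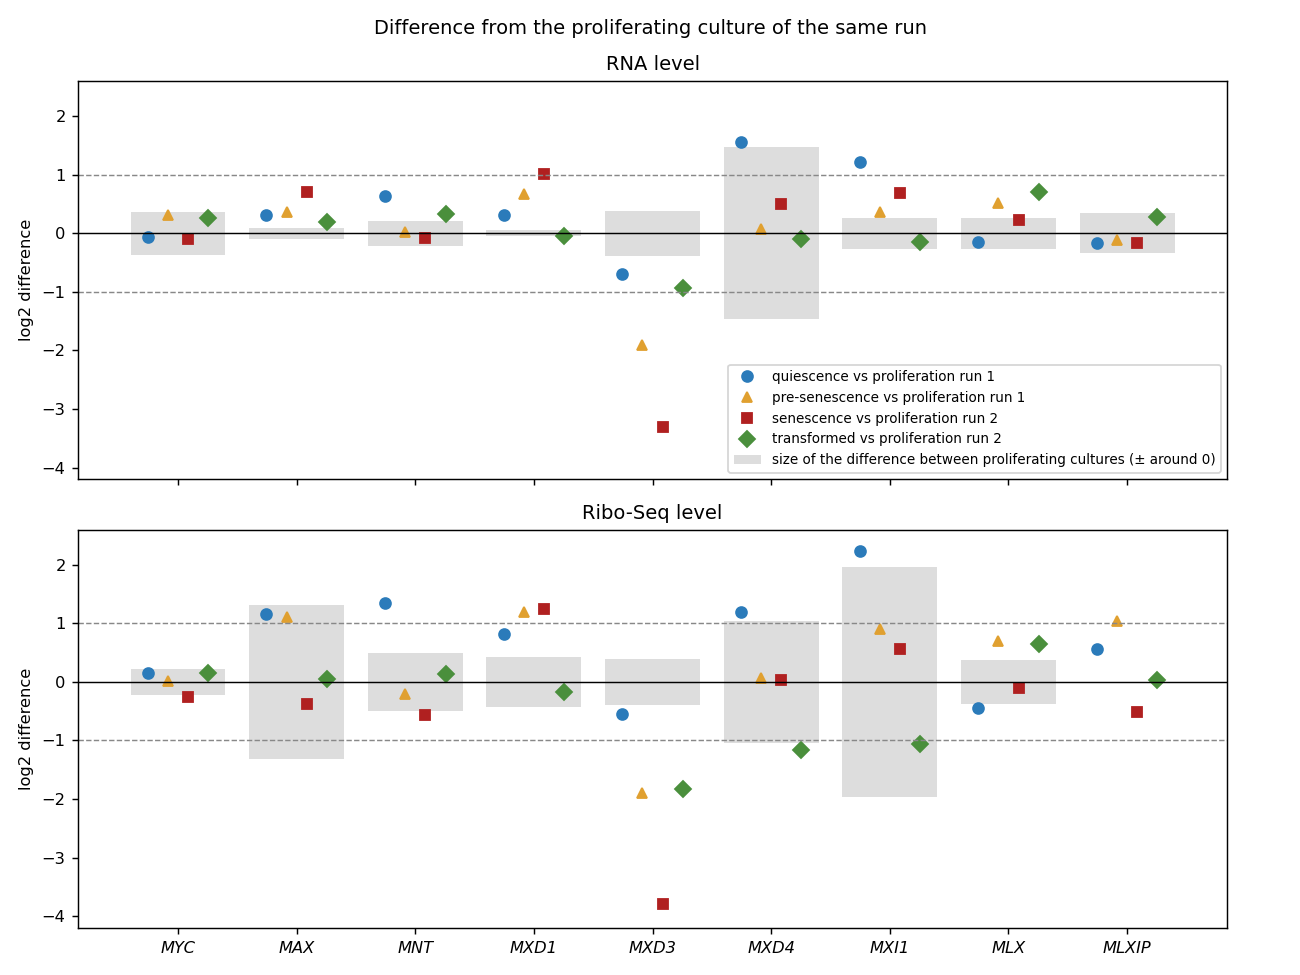
Log2 difference of each gene from the proliferating culture of its own run, for RNA (top) and Ribo-Seq (bottom); symbols are the 4 comparisons, dashed lines mark 2-fold, and the grey bar spans plus and minus the size of the difference between the proliferating cultures. The MXD3 points of senescence and pre-senescence lie well outside their grey bars, while the 4 Ribo-Seq points of MAX lie within its bar and its 4 RNA points do not.

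MYC itself varied little. Its RNA level, on transcript ENST00000454617, was 41.0 FPKM in proliferation of run 1, 39.4 in quiescence and 50.9 in pre-senescence, and 31.7 in proliferation of run 2, 29.8 in senescence and 37.9 in the library labelled transformed. Its Ribo-Seq level was 51.4, 57.1 and 51.7 FPKM in the same order of run 1, and 44.2, 37.0 and 49.5 FPKM in run 2. From the lowest to the highest column, its RNA level spanned 1.71-fold and its Ribo-Seq level 1.55-fold, and MYC was past 2-fold in none of the 4 comparisons in either assay or in TE. The RNA differences were -0.06 in quiescence, 0.31 in pre-senescence, -0.09 in senescence and 0.26 in the library labelled transformed, on the log2 scale, and all 4 were smaller than the -0.37 between proliferating cultures. In Ribo-Seq the difference in senescence, -0.26, was slightly larger in size than the -0.22 between proliferating cultures. MYC was an abundant transcript throughout, with a mean RNA level above that of 79.6% of genes, and its log2 TE lay between 0.02 and 0.54. These values concern RNA and ribosome occupancy, and MYC protein was not measured.

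MAX, a partner that these repressors and MYC share, had RNA levels on transcript ENST00000358664 of 20.1, 25.0 and 25.7 FPKM in proliferation, quiescence and pre-senescence of run 1, and 21.4, 35.0 and 24.3 FPKM in proliferation, senescence and the library labelled transformed of run 2. No RNA difference was past 2-fold, and the largest was 0.71 in senescence. Its Ribo-Seq level was 12.8, 28.6 and 27.7 FPKM in run 1 and 31.9, 24.5 and 33.0 FPKM in run 2. The run 1 proliferating column was low, and the 5 others lay between 24.5 and 33.0 FPKM. MAX therefore rose by Ribo-Seq in quiescence (log2 difference 1.16) and pre-senescence (1.11) against that column, but the other proliferating column stood 1.32 above it, and against that one the differences were -0.16 and -0.20. In senescence the TE of MAX fell by 1.09 on the log2 scale, with more RNA and fewer footprints than the run 2 control. Against the run 1 control it was 0.13, and the proliferating cultures differed by 1.23 in TE, so neither direction held with both controls. Under the condition labels the senescence TE difference of MAX would be -0.33, short of 2-fold.

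MXD3, the member of the MXD group whose expression is known to accompany the cell cycle, fell most. Its RNA level, on transcript ENST00000423571, was 7.65 FPKM in proliferation, 4.73 in quiescence and 2.03 in pre-senescence of run 1, and 9.93 in proliferation, 1.00 in senescence and 5.18 in the library labelled transformed of run 2. Its Ribo-Seq level was 18.2, 12.5 and 4.88 FPKM in run 1 and 13.8, 1.00 and 3.90 FPKM in run 2. Both proliferating columns were above every other column in each assay. In pre-senescence MXD3 fell by 1.91 on the log2 scale in RNA and fell by 1.90 in Ribo-Seq, and 25 of the 9699 genes fell further in RNA. In senescence both assays were at the floor, so RNA was at least 9.93-fold lower and Ribo-Seq at least 13.8-fold lower than in proliferation, and no TE can be given there. Quiescence differed by -0.69 in RNA and -0.54 in Ribo-Seq, short of the 2-fold limit, although against the run 2 control RNA fell by 1.07. In the library labelled transformed MXD3 fell by 1.83 in Ribo-Seq, with an RNA difference of -0.94 and a TE difference of -0.89. The falls in pre-senescence, senescence and the library labelled transformed kept their direction and stayed past 2-fold with the control of either run. Under the condition labels the senescence and transformed Ribo-Seq differences would be 3.79 and 1.96 in the opposite direction. The pre-senescence RNA call is lost where a mean of at least 5 FPKM is required.

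Proliferation genes were measured beside MXD3. MKI67 RNA was 73.9 FPKM in proliferation of run 1, 32.8 in quiescence and 37.0 in pre-senescence, and 44.0, 1.00 and 29.2 FPKM in proliferation, senescence and the library labelled transformed of run 2. CDK1, the kinase that drives entry into mitosis, went from 35.1 to 1.00 FPKM in senescence, and CCNB1, its cyclin partner, from 70.4 to 5.65. In the library labelled transformed, where MXD3 fell by Ribo-Seq, the Ribo-Seq differences of MKI67, CDK1 and CCNB1 were 0.11, -0.06 and -0.03. PCNA, a further proliferation gene, was lower there, by -0.80 in Ribo-Seq and -0.74 in RNA, and the RNA difference of MKI67 was -0.59. Whether these levels have a part in the MXD3 values was not tested, and in bulk RNA fewer cells of a state and less RNA per cell cannot be told apart.

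MXD1, a repressor known to be induced as cells differentiate, ran opposite to MXD3. Its RNA level, on transcript ENST00000264444, was 1.94, 2.42 and 3.08 FPKM in proliferation, quiescence and pre-senescence, and 2.01, 4.06 and 1.94 FPKM in proliferation, senescence and the library labelled transformed. By Ribo-Seq it was 3.93, 6.90 and 9.05 FPKM in run 1 and 5.25, 12.5 and 4.67 FPKM in run 2. Senescence was the highest column in both assays and pre-senescence the next in both, while the library labelled transformed lay no higher than the upper proliferating column. MXD1 rose in senescence by 1.01 in RNA and 1.25 in Ribo-Seq, and in pre-senescence by 1.20 in Ribo-Seq with an RNA difference of 0.67. With the control of the other run the senescence values were 1.07 and 1.67, while the pre-senescence Ribo-Seq value was 0.79 and no longer past 2-fold. The transcript was scarce, with a mean RNA level above only 7.8% of genes, and with a pseudocount of 1 its senescence RNA difference was no longer past 2-fold. Under the condition labels its senescence Ribo-Seq difference would be -1.25. Its log2 TE was between 1.02 and 1.63, above that of 88.7% of genes on average.

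MXD4, a repressor of the same group, was the most abundant of the 5 repressors in every column but the RNA of the run 1 proliferating culture, where MXD3 was slightly higher. The RNA level of MXD4, on transcript ENST00000337190, was 7.49, 22.1 and 7.91 FPKM in proliferation, quiescence and pre-senescence, and 20.8, 29.5 and 19.5 FPKM in proliferation, senescence and the library labelled transformed. By Ribo-Seq it was 29.6, 67.7 and 30.8 FPKM in run 1 and 60.8, 62.6 and 27.2 FPKM in run 2. Against its own control MXD4 rose in quiescence by 1.56 in RNA and 1.19 in Ribo-Seq, and 98.6% of genes had a lower RNA difference. The run 2 proliferating culture, however, stood 1.47 (RNA) and 1.04 (Ribo-Seq) above that of run 1, and against it the quiescence differences were 0.08 and 0.16. Against the run 1 control, senescence (1.98) and the library labelled transformed (1.38) would also be past 2-fold in RNA. In that library MXD4 fell by 1.16 in Ribo-Seq while RNA differed by -0.09, and TE fell by 1.07. That difference in TE was -1.5 with the other control, whereas the Ribo-Seq difference was then -0.12. MXD4 TE was lowest in this library, at a log2 of 0.48, and next lowest in senescence, at 1.09, against 1.55 to 1.99 in the 4 other columns. Fibroblast matrix genes moved between the proliferating cultures as well: 4 of 8 fibroblast markers rose in RNA from run 1 to run 2, among them COL1A1 from 371 to 1328 FPKM, and the summed level of all 8 was 6271 and 7309 FPKM. Their part in the MXD4 values was not tested.

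MXI1 and MNT, repressors that also pair with MAX, had their highest RNA levels in quiescence. MXI1 RNA, on transcript ENST00000332674, was 2.29, 5.29 and 2.95 FPKM in run 1 and 2.77, 4.47 and 2.49 FPKM in run 2, in the same order of conditions. By Ribo-Seq MXI1 was 1.01, 4.78 and 1.89 FPKM in run 1 and 3.93, 5.78 and 1.89 FPKM in run 2. Quiescence and senescence were thus the highest columns, and no other column reached them in either assay. MXI1 rose in quiescence by 1.21 in RNA, 2.24 in Ribo-Seq and 1.03 in TE, but the run 1 proliferating Ribo-Seq value was just above the floor and the proliferating cultures differed by 1.96. With the run 2 control the same values were 0.93, 0.28 and -0.65, so no quiescence call of MXI1 held with both controls. Its fall of 1.06 by Ribo-Seq in the library labelled transformed was a difference of 0.90 with the run 1 control. MNT RNA, on transcript ENST00000174618, was 5.30, 8.25 and 5.37 FPKM in run 1 and 6.15, 5.80 and 7.75 FPKM in run 2. By Ribo-Seq MNT was 5.29, 13.4 and 4.59 FPKM, and 7.49, 5.07 and 8.22 FPKM. MNT rose in quiescence by 1.34 in Ribo-Seq, with 0.64 in RNA, and both were larger than the 0.50 and 0.21 between proliferating cultures, although with the run 2 control the Ribo-Seq difference was 0.83.

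MLX and MLXIP form the arm of the network that senses glucose. MLX RNA, on transcript ENST00000246912, was 26.4, 23.8 and 37.9 FPKM in proliferation, quiescence and pre-senescence, and 22.1, 26.0 and 36.2 FPKM in proliferation, senescence and the library labelled transformed. Its Ribo-Seq level was 40.4, 29.5 and 65.3 FPKM in run 1 and 31.0, 29.0 and 48.8 FPKM in run 2. Pre-senescence and the library labelled transformed were the highest columns in both assays, by 0.52 and 0.71 in log2 RNA and 0.69 and 0.65 in log2 Ribo-Seq level, and none of these reached 2-fold. MLXIP had steady RNA and few footprints. Its RNA level, on transcript ENST00000319080, was 14.4, 12.9 and 13.3 FPKM in run 1 and 11.4, 10.2 and 13.9 FPKM in run 2, a span of 1.41-fold, the narrowest of the 9 genes. By Ribo-Seq it was 2.27, 3.36 and 4.67 FPKM in run 1 and 2.27, 1.58 and 2.34 FPKM in run 2. Its log2 TE was therefore between -2.69 and -1.51 in every column, and only 91 of the 9699 genes (0.9%) had a lower mean TE. MLXIP rose in pre-senescence by 1.04 in Ribo-Seq and 1.15 in TE. The Ribo-Seq value was the same, 1.04, with the other control, while the TE difference was 0.82, and both calls were lost with a pseudocount of 1.

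Because MYC and the repressors share MAX, their summed levels were also compared. The RNA of MXD1, MXD3, MXD4, MXI1 and MNT summed to 24.7, 42.8 and 21.3 FPKM in proliferation, quiescence and pre-senescence, and to 41.7, 44.8 and 36.9 FPKM in proliferation, senescence and the library labelled transformed. MYC RNA over that sum was 1.66, 0.922 and 2.39 in run 1 and 0.761, 0.665 and 1.03 in run 2. By Ribo-Seq the ratio was 0.885, 0.543 and 1.01 in run 1 and 0.485, 0.425 and 1.08 in run 2. In both assays the ratio was lower in quiescence and senescence than in the proliferating culture of the same run, and higher in pre-senescence and in the library labelled transformed. Under the condition labels the senescence and control Ribo-Seq ratios change places, to 0.485 against 0.425, and that direction turns. The ratios of the proliferating cultures, 1.66 and 0.761 in RNA, lay further apart than any condition from its control in RNA, and in Ribo-Seq only the library labelled transformed differed more. MXD4 alone made up 30.4% to 65.8% of the RNA sum and 51.1% to 72.0% of the Ribo-Seq sum. MAX RNA over the summed RNA of MYC and the 5 repressors was between 0.291 and 0.355 in 5 columns and 0.468 in senescence. By Ribo-Seq it was lowest in proliferation of run 1, at 0.117, and highest in the library labelled transformed, at 0.346. These ratios are of transcripts and footprints and say nothing of protein amounts.

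**Figure D3:**
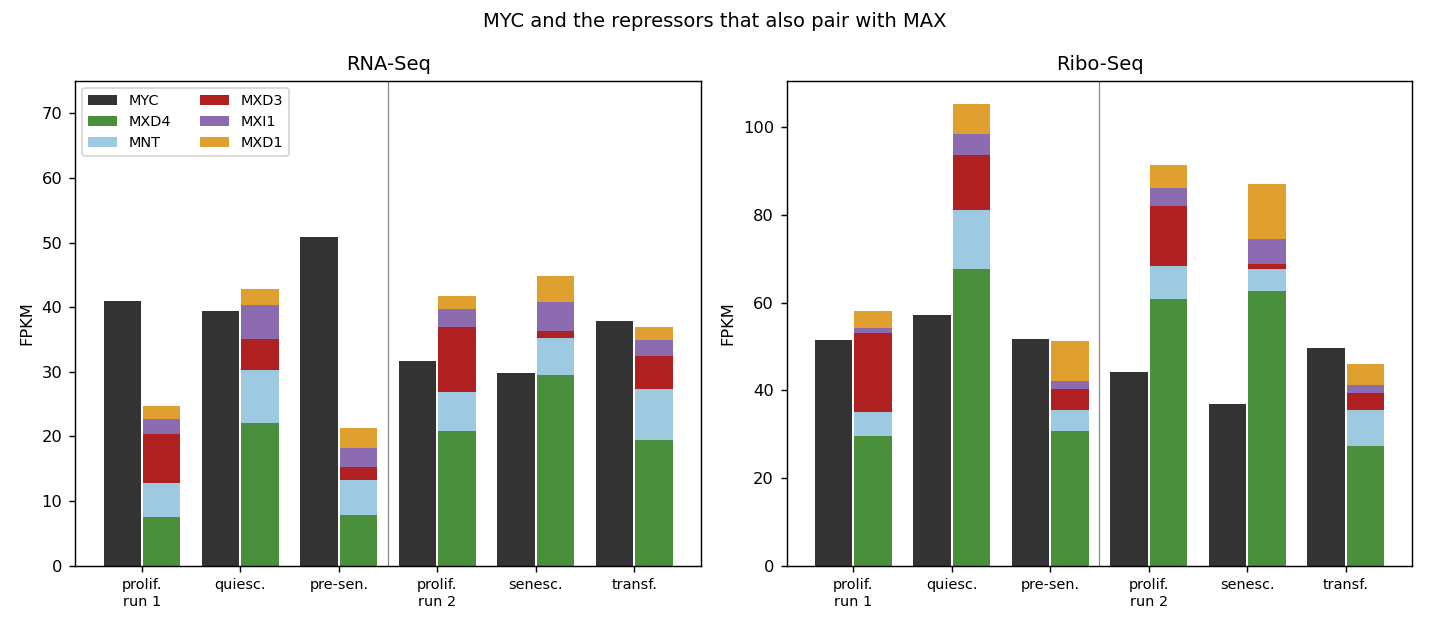
FPKM of MYC (black bars) beside the stacked FPKM of the 5 repressors that also pair with MAX, for RNA-Seq (left) and Ribo-Seq (right), in run 1 (left of the vertical line) and run 2. In RNA the MYC bar exceeds the stack in proliferation of run 1, in pre-senescence and narrowly in the library labelled transformed, and MXD4 is the largest part of most stacks.

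Other genes of the network were counted in the same way. Of 13 further partners and cofactors of MAX and MLX in the table, none was past 2-fold in RNA or Ribo-Seq in quiescence, pre-senescence or the library labelled transformed, with RNA medians of -0.26, -0.03 and 0.21 against 0.00, 0.02 and 0.08 over all genes. In senescence SIN3A, the corepressor that MXD proteins recruit, fell from 9.80 to 4.04 FPKM of RNA, and KAT5, an acetylase recruited by MYC that is named after its values were seen, was the 1 gene that fell in Ribo-Seq. SIN3A was 1 of 13 that fell in RNA, where 13.0% of all genes fell. The RNA median there was -0.55, further from 0 than the 0.23 of the members, and that between the proliferating cultures -0.50, so the list was lower in senescence and in run 2 to a similar extent. Among 16 genes that stabilise, degrade or modify MYC protein, 5 fell in senescence in RNA and 1, STUB1 (also named after its values were seen), rose, where 13.0% of all genes fell and 7.08% rose. The list's RNA median there was -0.37, and that between the proliferating cultures was -0.34. In Ribo-Seq 7 of the 16 fell and 1 rose, against 27.6% of all genes past 2-fold. KIAA1524, which encodes CIP2A, an inhibitor of MYC dephosphorylation, fell from 14.5 to 1.38 FPKM, AURKA, a mitotic kinase that also stabilises MYC proteins, from 44.3 to 9.65, and SKP2, a ubiquitin ligase subunit, from 18.2 to 7.97. SKP2 fell also in quiescence (23.5 to 11.2 FPKM) and in pre-senescence (10.8 FPKM). PIM1, a kinase that phosphorylates MYC, fell in pre-senescence from 3.58 to 1.10 FPKM, close to the floor, with Ribo-Seq at the floor of 1.00. PIM1 also differed by -1.15 in RNA and -1.58 in Ribo-Seq in senescence. Its differences in the library labelled transformed were -0.72 and -1.70. In the library labelled transformed BIN1, a protein that binds MYC and restrains it, rose from 8.29 to 17.6 FPKM and 0 of 16 fell in RNA. There 4.92% of all genes rose and 5.33% fell in RNA. In Ribo-Seq 2 of the 16 fell and 1 rose, against 12.7% of all genes past 2-fold.

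Textbook targets of MYC were measured beside it. Of 25 MYC-induced genes in the table, mostly of ribosome production, nucleotide synthesis and metabolism, 2 fell in RNA in quiescence and 8 in Ribo-Seq, with medians of -0.55 and -0.86 against 0.00 and -0.05 over all genes. Of all 9699 genes, 230 fell in RNA and 778 in Ribo-Seq there. BOP1, a factor of large ribosomal subunit assembly, fell from 14.8 to 6.94 FPKM and PA2G4, a growth-regulating protein, from 182 to 88.7. The study itself names BOP1, NOP56 and PA2G4 from these samples, so their direction is not independent evidence. The run 2 proliferating culture was lower than that of run 1 by a median of -0.67 for the same 25 genes, 4 of which fell past 2-fold, so the RNA median differed more between the controls than in quiescence. In pre-senescence 0 of 25 were past 2-fold in RNA or Ribo-Seq. There 1.77% of all genes rose and 2.0% fell in RNA, and 17.4% were past 2-fold in Ribo-Seq. In senescence 2 fell in RNA, FBL from 78.4 to 30.7 FPKM and RCC1 from 29.9 to 14.1, and 5 in Ribo-Seq. Of all genes 13.0% fell in RNA there, a share that 2 of 25 does not exceed, and 1607 of 9699 fell in Ribo-Seq. Between the proliferating cultures FBL differed by -1.14 and RCC1 by -0.92 in RNA. In the library labelled transformed 0 of 25 were past 2-fold in RNA or Ribo-Seq, with an RNA median of 0.32. There 4.92% of all genes rose and 5.33% fell in RNA, and 12.7% were past 2-fold in Ribo-Seq. Of 5 MYC-repressed genes, 3 rose in senescence: CDKN1A, the p21 inhibitor of the cell cycle, from 172 to 814 FPKM, GADD45A, a stress-response gene, from 57.4 to 179.6, and CCND1, cyclin D1, from 476 to 1023. Of all genes 7.08% rose in RNA there. In Ribo-Seq CDKN1A alone rose, and NDRG1 fell by 1.27 with an RNA difference of -0.97, while the TE of GADD45A fell by 1.01. The study also names CDKN1A and GADD45A from these samples, so their rise is not independent evidence. In the library labelled transformed 3 fell, CDKN1A from 172 to 80.3 FPKM, NDRG1 from 21.2 to 10.4 and GADD45B from 21.4 to 9.60. There 5.33% of all genes fell in RNA. CDKN1A stood at 80.8 FPKM in the run 1 proliferating culture. Its fall of 1.1 on the log2 scale was close to the 1.09 between the proliferating cultures, where NDRG1 differed by 0.44 and GADD45B by -0.28. The library labelled transformed differs from its control in several genes at once, and their parts in these values cannot be told apart. In quiescence NDRG1 rose from 15.6 to 63.9 FPKM. Of 5 MondoA and MLX targets, ARRDC4, an arrestin-like regulator of glucose uptake, fell in pre-senescence from 54.2 to 24.4 FPKM and in the library labelled transformed from 61.1 to 30.0, where PFKFB3, a glycolytic regulator, rose from 20.5 to 57.2. Of all genes 2.0% fell in RNA in pre-senescence, and 4.92% rose and 5.33% fell in the library labelled transformed. In quiescence and senescence 0 of the 5 were past 2-fold in RNA. In Ribo-Seq 2 rose and 1 fell in senescence, against 27.6% of all genes past 2-fold. In quiescence ARRDC4 alone fell in Ribo-Seq, against 17.1%.

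Across the 12 columns the members' patterns were little alike. Pearson's r of log2 FPKM, each assay centred on its own mean, was -0.83 between MXD1 and MXD3, 0.71 between MXD4 and MXI1 and -0.64 between MYC and MXD4, as a description over 12 columns that share libraries and runs. Among genes with a mean RNA level of at least 10 FPKM, the 2 with the pattern most like MYC were GPI, a glycolytic enzyme (r 0.93), and NXT1, an mRNA export factor (0.92). Those most like MAX were HABP4 (0.94) and BEX4 (0.89), and those most like MNT were CMTM3 (0.90) and C19orf66 (0.89). For MXD1 they were MAP1A (0.96) and RAB7L1 (0.95), and for MXD3 EML2 and OSR2 (both 0.96). For MXD4 they were RABAC1 (0.95) and HLA-E (0.93), and for MXI1 C10orf26 (0.95) and PPAPDC1B (0.90). For MLX they were SPHK1 and PRPF3 (both 0.93), and for MLXIP RHOT2 (0.96) and FGD1 (0.95). By Spearman's rank measure GPI, HABP4, CMTM3, RABAC1 and SPHK1 were again the closest, whereas neither of the pairs named for MXD1 and MXD3 was among the 2 closest.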

How the data were processed

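RNA-Seq (9 libraries) and Ribo-Seq (8 libraries) of BJ fibroblasts were read from the FPKM table the authors deposited, 12 columns of 9699 genes. The authors aligned reads with Bowtie (version not given in the sources used here) to 1 Ensembl transcript per gene, with hg19 named in the submitters' processing notes, kept unique matches, took RNA FPKM over the transcript and Ribo-Seq FPKM over the coding sequence, and raised values below 1 to 1. Run 1 RNA was sequenced paired-end and run 2 RNA single-end. RNA and Ribo-Seq libraries of a condition were not matched by number. Here log2 differences were taken without a pseudocount from these deposited values, and TE as the log2 Ribo-Seq minus the log2 RNA FPKM, with pandas 2.3.3 in Python 3.11.15. A call was a 2-fold difference. No p-value was computed, since a condition has 1 column per assay. Floored genes in at least 1 column numbered 1285. The steps were tested on simulated data with known changes. All members are named. From each list at most 4 genes per comparison were named, those past 2-fold in RNA with the same direction in Ribo-Seq and the largest difference, and each member's 2 most similar genes. The members and lists were chosen with earlier results of these data known. A gene of the design is not reported here.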

Additional observations from a re-analysis of the deposited data

Results flagged for a closer look

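The members below had differences from control of opposite sign in the conditions compared, at least 2-fold apart, and none of these contrasts was tested. MXD3 is not among them because its differences shared a sign. In RNA they were -1.91 in pre-senescence, -3.31 in senescence (at the floor) and -0.94 in the library labelled transformed. Between pre-senescence and senescence, each against its own proliferating culture and so in different runs, MAX went from 1.11 to -0.38 in log2 Ribo-Seq level, a change of -1.5, and from 0.76 to -1.09 in TE, a change of -1.85. MLXIP went from 1.04 to -0.52 in Ribo-Seq, a change of -1.56, and from 1.15 to -0.36 in TE, a change of -1.51. Between senescence and the library labelled transformed, which share a control, MXD1 went from 1.01 to -0.05 in RNA, a change of -1.07, and from 1.25 to -0.17 in Ribo-Seq, a change of -1.42. MXD4 went from 0.04 to -1.16 in Ribo-Seq, a change of -1.20, and MXI1 from 0.56 to -1.06, a change of -1.61. The MAX pattern rests on proliferating cultures that differ by 1.32 in Ribo-Seq and 1.23 in TE. With the disputed Ribo-Seq libraries grouped by condition label, the Ribo-Seq and TE changes were -0.73 and -1.08 for MAX and -0.52 and -0.47 for MLXIP, and the Ribo-Seq changes were -0.17 for MXD1, -1.16 for MXD4 and -1.06 for MXI1.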

How the results depend on the processing

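With a pseudocount of 1, 16 of the 22 member calls held, with the proliferating control of the other run 9, with centring 22, with a mean of at least 5 FPKM 14, and with the 2 disputed Ribo-Seq libraries grouped by condition label 3 of the 7 they touch. With the other control MAX was -0.16 in quiescence and -0.20 in pre-senescence by Ribo-Seq and 0.13 in senescence TE, MXI1 was -0.65 in quiescence TE and 0.90 in transformed Ribo-Seq, all of opposite sign. With condition labels MXD1 was -1.25 and MXD3 3.79 in senescence Ribo-Seq, and MXD3 1.96 in transformed Ribo-Seq. The cause was not tested for the control, while the label alternative exchanges 2 columns by construction. Over all genes, counts past 2-fold in RNA, Ribo-Seq and TE were 620, 1662 and 765 in quiescence, 366, 1692 and 1411 in pre-senescence, 1947, 2676 and 915 in senescence and 994, 1227 and 331 in the library labelled transformed. At 1.5-fold they were 1885, 3959 and 2451, then 1192, 3747 and 3553, then 3964, 4822 and 3048, then 2383, 2826 and 1531. A mean of at least 5 FPKM, which tests fewer genes, gave 321 (quiescence TE), 240, 1052 and 678 (pre-senescence RNA, Ribo-Seq and TE), 592 (senescence TE), 653 and 125 (transformed RNA and TE). A pseudocount of 1 gave 441 in quiescence TE and 182 in transformed TE. The other control gave 1137 in pre-senescence RNA, 1817 in senescence TE, 2078 in transformed Ribo-Seq and 1282 in transformed TE. Condition labels gave 4642 in senescence TE, 2905 in transformed Ribo-Seq and 2637 in transformed TE. Leaving 1 partner out of the ratio of MAX RNA to its partners moved its log2 span over columns from 0.68 to between 0.56 (without MXD3) and 1.23 (without MYC), with 1.17 without MXD4. No paired analysis was possible because the table holds 1 column per condition and assay. The reads behind low values, those of MXD1, MXI1, MXD3 and MLXIP by Ribo-Seq, were not estimated.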
